A study of Mus musculus with 12 samples.

Results

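The genes described here build and run the ciliary transport machinery of the main olfactory epithelium (MOE): the intraflagellar transport (IFT) complexes IFT-B and IFT-A, the Bardet-Biedl syndrome complex (BBSome) with its chaperonin-like assembly factors, the motors that carry them, and the transition zone at the base of the cilium. Of 39 genes listed, 37 were measured, by 38 probe sets out of 35556 on the array. A probe set counted as a member when the platform annotation gave it a single gene symbol and that symbol was on the list, and *Tctn1* had 2 such probe sets (10533444 and 10533446). No probe set of the annotation carried *Arl6* or *Arl13b*, which encode ciliary GTPases, as its single gene symbol, and these genes were not analysed here.

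The study deleted the J element, an enhancer of the class I odorant receptor (OR) genes, from the mouse genome. RNA of the MOE of 6 mice with the deletion (ΔJ) and of 6 wild-type littermates was hybridised to Affymetrix Mouse Gene 1.0 ST arrays, 1 mouse per array. The labels call the former knockout, and the paper uses the name ΔJ for homozygous mice while its methods speak of heterozygous mice of the second backcross for the arrays; the ΔJ mice are read here as homozygous offspring. The strain of all mice is labelled C57BL/6. The ΔJ mice came from the second backcross of a single founder line, made by CRISPR-Cas9 in hybrid B6C3F1 eggs and crossed to C57BL/6NCrSlc. They were 3 males and 3 females, of which 5 were 30 days old (P30) and 1 was 33 days old (P33). The wild-type mice were 2 males and 4 females, of which 4 were P30 and 2 were P33. Replicates are numbered 1 to 6 in each genotype. All levels below are log2 signals minus the 75th percentile of the same array, so that 0 is the signal that 75% of probe sets stay under, and all differences are on that log2 scale.

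Olfactory sensory neurons (OSNs) carry their odorant receptors and transduction channels in the membrane of long, immotile cilia at the tip of the dendrite. Cilia make no protein of their own. IFT-B trains, pulled outward by kinesin-II, bring cargo to the tip, and IFT-A trains, pulled back by dynein 2, return it. The BBSome links membrane proteins to these trains, and the transition zone gates what may pass. In people, mutations of many of these genes cause Bardet-Biedl, Joubert and Meckel syndromes and nephronophthisis, and loss of the sense of smell is known in Bardet-Biedl syndrome. The MOE also holds multiciliated respiratory-type cells at its borders, which use the same machinery, and in RNA of the whole tissue fewer cells of a type and less RNA per cell cannot be told apart.

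The arrays carried the signs of the genotype and of the tissue. *Olfr544*, beside the J element, lay between -1.75 and -1.41 in the wild-type and between -3.55 and -3.27 in ΔJ mice, a log2 difference of -1.84 (limma, adjusted p = 2.50e-07). *Olfr552* lay between -0.99 and -0.37 in the wild-type and between -3.65 and -2.73 in ΔJ mice, a difference of -2.67 (limma, adjusted p = 6.67e-06). The OSN markers *Omp*, *Gnal* and *Gng13* had wild-type means of 3.95, 4.08 and 1.80. The motile ciliated cell markers *Foxj1*, *Mcidas* and *Ccno* had wild-type means of 0.69, -0.84 and -1.50. ΔJ replicate 5 stood apart. Each mouse was set against the median of its own genotype and set of replicates (those up to number 3, or those after it). The probe sets of ΔJ replicate 5 deviated from that median by 0.181 on average, against 0.0717 to 0.150 in the other 11 mice.

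Genes of cilia are known targets of regulatory factor X (RFX) proteins, which bind a pair of half-sites, and the proximal promoters of the members were read for those letters. RefSeq promoter windows of GRCm38.p6, 300 bases that run from 250 before to 50 after the gene start, were matched for 35 of the 39 genes. The windows of *Ift80*, *Ift81*, *Ift122* and *Tmem67* were not matched. The half-site GTTGCC stood on either strand in 18 of the 35 (51.4%), against 14.1% of all 27025 genes with a window. The spaced pair, GTTNCC and GGNNAC with 2 free bases between them, stood in 8 of the 35 (22.9%), against 1.49% of all genes. The half-site can lie inside the pair, so that these counts overlap. The windows of the members were richer in G and C, with a median of 60.0% against 52.7% over all promoters. Among the 15614 genes of the array with a window, whose median G and C content was 57.3%, the shares were 14.0% and 1.72%.

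The 8 genes with the spaced pair were *Ift57*, *Bbs1*, *Bbs4*, *Bbs7*, *Tctn1*, *Tctn2*, *Mks1* and *Nphp4*. The 5 whose match ends before the gene start are printed, from 5′ to 3′ on the strand of the gene, because they show the same letters in front of an IFT, a BBSome and 3 transition zone genes. Capitals mark the match. They lie at chr16:49699185-49699242 (plus strand, *Ift57*), chr3:36613475-36613532 (minus strand, *Bbs7*), chr5:124598665-124598722 (plus strand, *Tctn2*), chr11:87853169-87853214 (plus strand, *Mks1*) and chr4:152477892-152477946 (plus strand, *Nphp4*) of GRCm38.p6.
Ift57: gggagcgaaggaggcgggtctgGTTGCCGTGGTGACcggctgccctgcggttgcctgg
Bbs7: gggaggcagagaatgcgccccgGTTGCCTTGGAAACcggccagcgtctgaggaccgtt
Tctn2: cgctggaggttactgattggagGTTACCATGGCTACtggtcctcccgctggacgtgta
Mks1: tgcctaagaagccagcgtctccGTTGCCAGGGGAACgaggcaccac
Nphp4: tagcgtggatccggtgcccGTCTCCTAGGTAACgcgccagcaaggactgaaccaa

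The match ended 73 bases before the start of *Ift57*, 107 before that of *Bbs7*, 48 before that of *Tctn2*, 10 before that of *Mks1* and 217 before that of *Nphp4*. *Nphp4* matches on the opposite strand to the gene. In all, 9 patterns of this kind were counted: the half-site and the spaced pair, which were chosen for the text after the counts were seen, and 7 more. The 7 were GTTNCC and GGNAAC 2 bases apart, GTTNC and GNAAC 4 apart, GTNNC and GNNAC 4 apart, GTTGCC and GGNAAC with AT between them, GTTGC and GCAAC 3 apart, the same 4 apart, and GTTNC and AAC 6 apart. In that order these stood in 3, 3, 10, 0, 1, 1 and 4 of the 35 genes, and in 0.529%, 1.19%, 8.13%, 0.0851%, 0.252%, 0.192% and 3.23% of all genes. These patterns overlap with each other. A match to letters is a description of the sequence and not a binding site.

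Other ciliary genes shared the letters. Among 40 further ciliary transport and transition zone genes with a window, 13 held the half-site (32.5%) and 7 the spaced pair (17.5%). Among 30 motile ciliated cell markers, 18 held the half-site (60.0%) and 5 the pair (16.7%). Among 14 mature OSN markers, 3 held the half-site (21.4%) and 1 the pair (7.14%). No test of these shares was run.

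**Figure D1:**
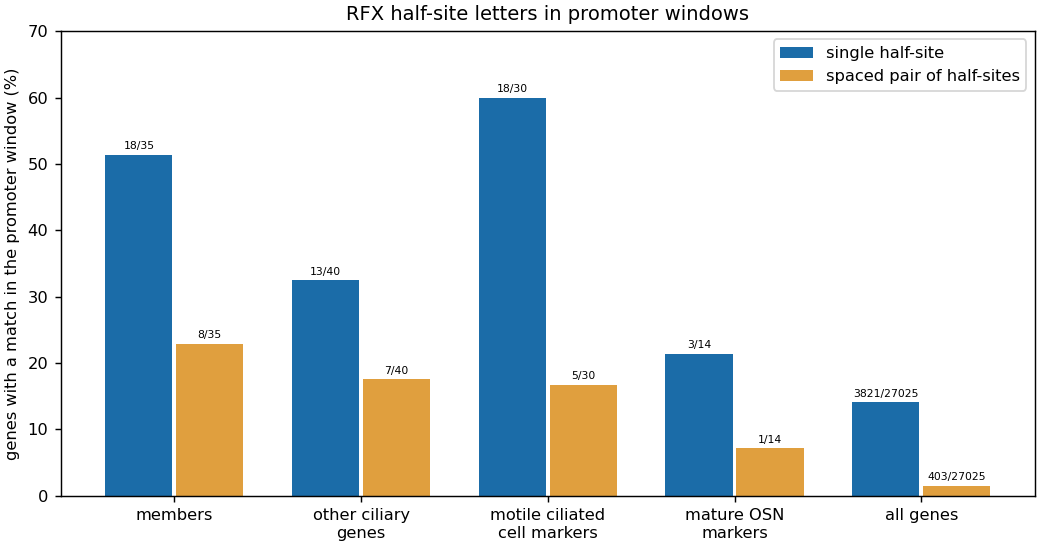
Percent of genes (y axis) whose 300-base promoter window held the RFX half-site (blue) or the spaced pair of half-sites (orange), on either strand, for 5 sets of genes (x axis). The numbers over the bars give genes with a match over genes with a window: 18 of 35 members held the half-site, against 14.1% of all genes.

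The comparison of ΔJ with wild-type mice asks whether the loss of the enhancer, which lowered class I OR transcripts such as *Olfr544* and *Olfr552*, was accompanied by a change of the ciliary transport machinery. None of the 38 members passed the test. In the fit of genotype across all probe sets (limma, Benjamini-Hochberg), 0 members had an adjusted p under 0.05, beside 0.135% of all probe sets, and their adjusted p ran from 0.993 to 0.999. At an unadjusted p under 0.05 the count was also 0, beside 3.33% of all probe sets. In no member did the 6 ΔJ mice lie wholly above or below the 6 wild-type mice, beside 0.301% of all probe sets.

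The intervals were narrow. The 95% interval of the difference lay within 1.3-fold in both directions for 37 of 38 members, beside 61.7% of all probe sets, and the exception was the upper bound of *Ift74*, at 0.39 or 1.31-fold. The differences ran from -0.14 (*Ift20*) to 0.17 (*Ift74*) with a median of 0.03, and the median over all probe sets was -0.03. Of the members 17 were lower and 21 higher in ΔJ mice, and 60.2% of all probe sets were lower. Those counts became 9 and 29 when the array median was subtracted, where the median over all probe sets was 0.01, and 12 and 26 without ΔJ replicate 5. The median absolute difference was 0.0508 in the members and 0.0762 in all probe sets. Group SDs of the members ran from 0.0489 to 0.336 (n = 6 mice each), and standard errors of the difference from 0.0532 to 0.139.

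**Figure D2:**
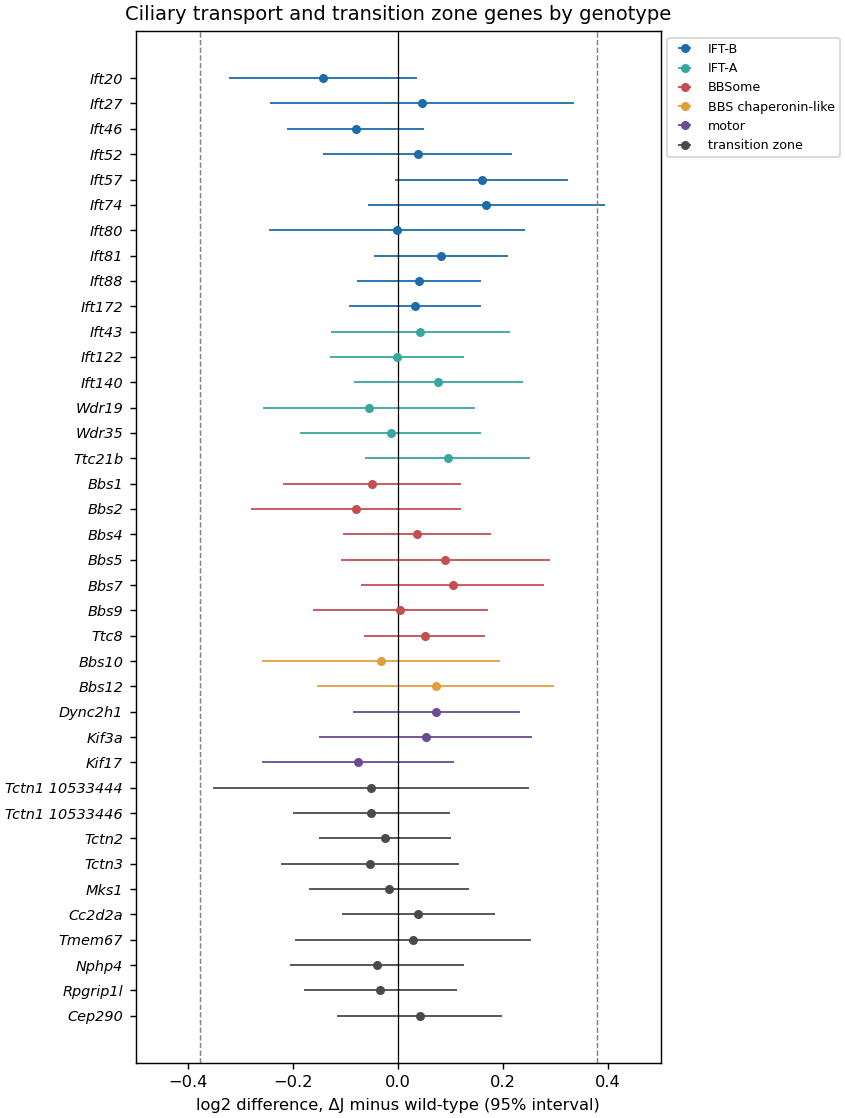
Log2 difference of each member, ΔJ minus wild-type (x axis; points, with 95% intervals as bars; 6 mice per genotype), in the order of the text and coloured by role. Dashed lines mark 1.3-fold, which only the upper bound of *Ift74* passed.

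IFT-B, the larger complex that carries cargo towards the ciliary tip, was represented by 10 genes. The median difference was 0.04, with 3 members lower and 7 higher in ΔJ mice, and 0 of 10 were called. *Ift57*, a peripheral subunit of IFT-B, had the smallest p of all members. It lay between 0.32 and 0.57 in the wild-type, with a median of 0.48, and between 0.39 and 0.81 in ΔJ mice, with a median of 0.62. The ΔJ mice were higher by 0.16 ± 0.08 (SE; limma, adjusted p = 0.993), and the groups overlapped, since ΔJ replicate 6 at 0.39 lay under 4 wild-type mice. *Ift20*, the subunit that also sits at the Golgi and serves the sorting of ciliary membrane proteins, lay between 2.24 and 2.53 in the wild-type, with a median of 2.38, and between 1.99 and 2.43 in ΔJ mice, with a median of 2.27. Its difference of -0.14 ± 0.08 (SE) was the lowest of the members, and its lowest value was that of ΔJ replicate 5.

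*Ift74* and *Ift81* form the tubulin-binding pair of the IFT-B core. *Ift74* lay between -0.15 and 0.40 in the wild-type, with a median of 0.19, and between 0.11 and 0.46 in ΔJ mice, with a median of 0.35. The wild-type values were split, with replicates 1 to 3 at 0.40, 0.29 and 0.35 and replicates 4 to 6 at 0.09, -0.15 and -0.03. *Ift81* lay between 0.68 and 0.91 in the wild-type, with a median of 0.75, and between 0.76 and 0.90 in ΔJ mice, with a median of 0.89. The differences were 0.17 ± 0.10 (SE) for *Ift74* and 0.08 ± 0.06 (SE) for *Ift81*, and neither passed the test. Between mice of the same replicate number, *Ift74* was higher in the ΔJ mouse in 6 of 6 pairs, by 0.02 to 0.61, and so was *Ift57*, by 0.03 to 0.45. These were 2 of 38 members (5.26%), beside 1.49% of all probe sets, and 0 members were lower in all 6 pairs, beside 3.59%. The labels do not say that mice of the same number are pairs, and such mice differed in sex except in replicate 4.

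*Ift46*, a core subunit needed to bring outer dynein arms into motile cilia, lay between 1.19 and 1.34 in the wild-type, with a median of 1.27, and between 1.10 and 1.36 in ΔJ mice, with a median of 1.16. *Ift88*, a core subunit whose loss abolishes most cilia, lay between 1.01 and 1.19 in the wild-type, with a median of 1.07, and between 1.06 and 1.17 in ΔJ mice, with a median of 1.14. The groups overlapped for both, although 4 ΔJ mice lay outside the wild-type range of *Ift46*, 3 below and 1 above. The differences were -0.08 ± 0.06 and 0.04 ± 0.05 (SE). The other IFT-B genes, *Ift27*, *Ift52*, *Ift80* and *Ift172*, differed by 0.04, 0.04, -0.00 and 0.03.

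IFT-A, the complex of the return path and of the entry of membrane receptors, was represented by 6 genes with a median difference of 0.02, 3 lower and 3 higher. *Ift140*, a core subunit, lay between 0.53 and 0.85 in the wild-type, with a median of 0.73, and between 0.63 and 0.92 in ΔJ mice, with a median of 0.79. The groups overlapped and differed by 0.08 ± 0.07 (SE). *Wdr19* differed by -0.06, *Wdr35* by -0.01, *Ift122* by -0.00, *Ift43* by 0.04 and *Ttc21b* by 0.09. None of the 6 passed the test.

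The BBSome, a coat that moves membrane proteins along the cilium, was represented by 7 genes. Their median difference was 0.04, with 2 lower and 5 higher. *Bbs4*, whose loss in mice impairs olfaction, lay between 1.10 and 1.32 in the wild-type, with a median of 1.14, and between 1.12 and 1.34 in ΔJ mice, with a median of 1.19. *Ttc8*, also known as Bbs8, lay between 0.72 and 0.88 in the wild-type, with a median of 0.82, and between 0.80 and 0.94 in ΔJ mice, with a median of 0.85. The groups overlapped for both, with differences of 0.04 ± 0.06 and 0.05 ± 0.05 (SE). *Bbs1*, *Bbs2*, *Bbs5*, *Bbs7* and *Bbs9* differed by -0.05, -0.08, 0.09, 0.10 and 0.00. *Bbs10* and *Bbs12*, which encode the chaperonin-like proteins that help to assemble the BBSome, differed by -0.03 and 0.07.

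The motors were represented by 3 genes. *Kif17*, a homodimeric kinesin implicated in moving the olfactory cyclic nucleotide-gated channel into cilia, lay between -1.73 and -1.37 in the wild-type, with a median of -1.55, and between -1.80 and -1.41 in ΔJ mice, with a median of -1.62. *Dync2h1*, the heavy chain of dynein 2, lay between 0.35 and 0.60 in the wild-type, with a median of 0.48, and between 0.40 and 0.70 in ΔJ mice, with a median of 0.52. The groups overlapped, and the differences were -0.08 ± 0.08 and 0.07 ± 0.07 (SE). *Kif3a*, a motor subunit of kinesin-II, differed by 0.05.

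The transition zone was represented by 9 genes and 10 probe sets, and was the only role with a median below 0, at -0.03, with 7 lower and 3 higher. That direction turned when the median of each array was subtracted in place of the 75th percentile, to a median of 0.01 with 3 lower and 7 higher, and 0 probe sets were called under either. It also turned without ΔJ replicate 5, to a median of 0.02 with 4 lower and 6 higher. *Cep290*, a linker between the membrane and the microtubules whose hypomorphic mouse lacks smell, lay between -0.32 and 0.04 in the wild-type, with a median of -0.08, and between -0.13 and 0.10 in ΔJ mice, with a median of -0.10. The groups overlapped, with a difference of 0.04 ± 0.07 (SE). The tectonic genes *Tctn2* and *Tctn3* differed by -0.03 and -0.05, and the 2 probe sets of *Tctn1* by -0.05 each. *Mks1*, *Nphp4*, *Rpgrip1l*, *Cc2d2a* and *Tmem67* differed by -0.02, -0.04, -0.03, 0.04 and 0.03. The mean level over the 10 probe sets was -0.37 in ΔJ replicate 5 and between -0.20 and -0.08 in the other 11 mice.

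**Figure D3:**
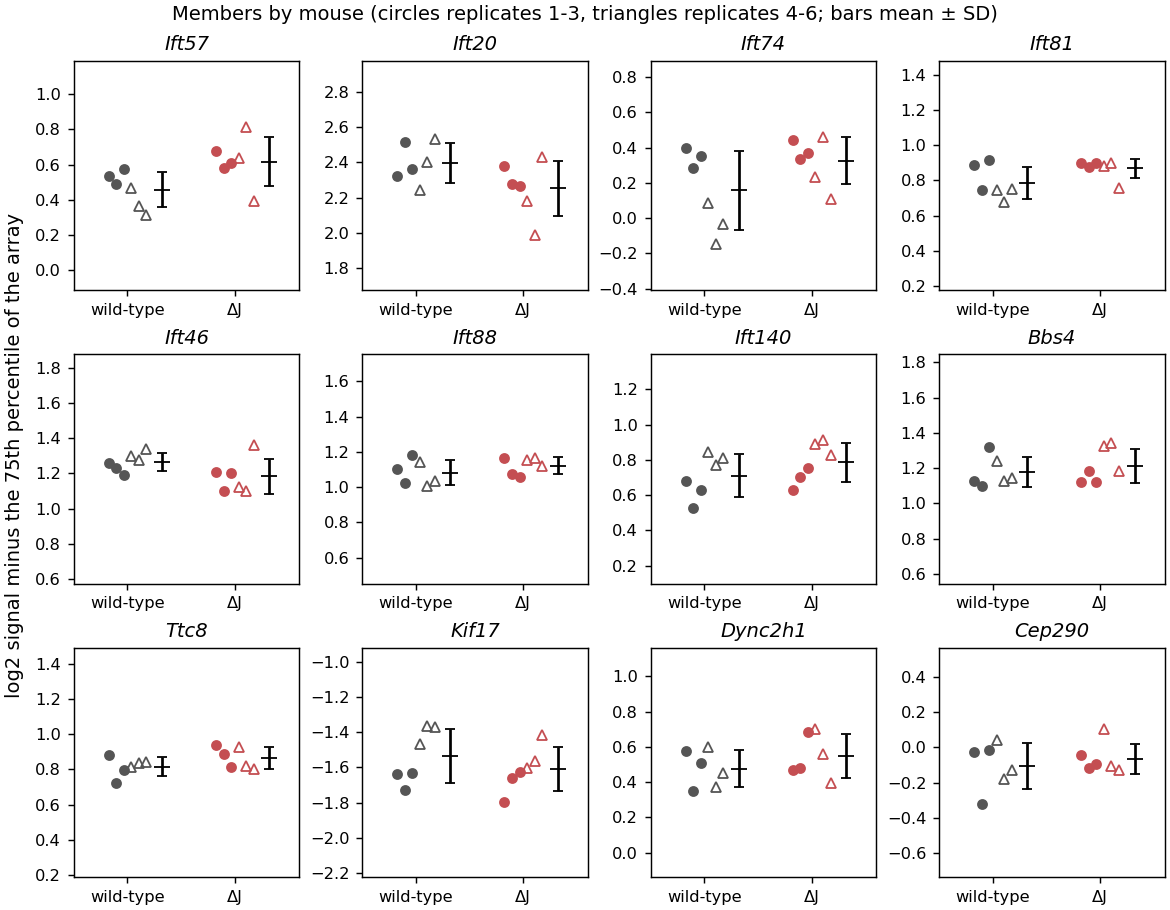
Level of 12 members (y axis, log2 signal minus the 75th percentile of the array) in each wild-type (grey) and ΔJ (red) mouse, with circles for replicates 1 to 3, triangles for replicates 4 to 6, and bars for the mean ± SD of the 6 mice. The y axes span the same number of log2 units but are centred on each gene. The genotypes overlap in every panel.

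The promoter letters were set beside the genotype differences. The 9 probe sets of the 8 genes with the pair had a median difference of -0.03, with 6 lower, and the 25 probe sets of genes with a window and no pair had a median of 0.04, with 9 lower. With the pair, the count was 3 lower of 9 both when the array median was subtracted and without ΔJ replicate 5, with medians of 0.02 and 0.01, so that its direction turned under each. By the half-site the medians were 0.01 over 18 probe sets and 0.04 over 16. The list of RFX and FOXJ1 regulators, 8 genes that included *Rfx1*, *Rfx2* and *Rfx3* with wild-type means of -0.11, 0.43 and 2.18, held 0 calls. All 8 were lower in ΔJ mice, with a median of -0.06, and 7 of 8 were lower after quantile normalisation and 5 of 8 when the array median was subtracted. Their mean level was -0.47 in ΔJ replicate 5, from -0.24 to -0.08 in the other ΔJ mice and from -0.20 to -0.07 in the wild-type.

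A further 47 ciliary transport and transition zone genes, which complete the same complexes and the cargo adaptors around them, were read as companions. Of these 42 were measured, by 45 probe sets. Their median difference was 0.04, with 22 lower and 23 higher, which became 15 lower and 30 higher on unshifted values and 7 lower and 38 higher when the array median was subtracted. Under the 75th percentile shift 0 were called at an adjusted p, or at an unadjusted p under 0.05. The 3 genes with the smallest p were *Tmem237*, a transition zone protein, *Pde6d*, which carries lipid-anchored proteins to cilia, and *Kifap3*, the accessory subunit of kinesin-II. Their log2 differences were 0.12, 0.09 and 0.11 (limma, adjusted p = 0.993 for each).

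Cell type markers were set beside these values, with 0 genotype calls in each list. Means were taken over probe sets, so that a gene with several probe sets counted several times. The mean level of the 37 motile ciliated cell markers lay between -0.38 and -0.28 in the wild-type and between -0.42 and -0.34 in ΔJ mice. That of the 17 mature OSN markers, over 20 probe sets, lay between 2.06 and 2.14 in the wild-type and between 1.88 and 2.13 in ΔJ mice, or from 2.04 without ΔJ replicate 5. Several of these probe sets were of *Cngb1*, with wild-type means of 2.22, -2.02, -0.94 and -1.33. The immature OSN markers, among them *Gap43*, *Gng8* and *Dpysl3*, lay between 1.40 and 1.57 and between 1.33 and 1.57. The basal and progenitor markers, with *Krt5*, *Krt14* and *Trp63*, lay between -0.72 and -0.54 and between -0.73 and -0.55. The sustentacular markers, with *Cyp2g1*, *Cyp1a2* and *Ermn*, lay between 3.15 and 3.25 and between 3.18 and 3.27. The immune and blood markers, with *Ptprc*, *Cd68* and *Lyz2*, lay between -0.65 and -0.36 in the wild-type and between -0.68 and 0.08 in ΔJ mice, with ΔJ replicates 4 and 5 highest at 0.08 and -0.07. Of their 10 probe sets 9 were higher and 1 lower in ΔJ mice, with a median difference of 0.12. Those counts were the same on unshifted values, after subtraction of the array median and after quantile normalisation. The ranges of the genotypes overlapped in each list, and the part of these cell types in the members' values was not tested.

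The sexes were compared with genotype in the fit, between 5 males and 7 females. Of the members, 0 were called, beside 0.0141% of all probe sets, and 0 had an unadjusted p under 0.05, beside 4.65%. The difference of males from females ran from -0.16 (*Ift27*) to 0.18 (*Tctn1*, probe set 10533444), with a median of 0.02 beside 0.04 over all probe sets, and the lowest adjusted p was 0.896. The intervals were wider than for genotype in 36 of 38 members, and their largest bound was 0.48.

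Replicates 1 to 3 and 4 to 6 of both genotypes differed on the array as a whole, and some members passed the test of that difference. The labels do not say what the replicate numbers stand for, and all P33 mice are among replicates 5 and 6, and the part of age in that difference was not tested. The split was chosen because earlier results of these data had shown that these arrays differ. The p values for it therefore describe a split taken from the data. With genotype in the fit, 15 of 38 members passed (39.5%; limma, adjusted p under 0.05), beside 42.2% of all probe sets. Of these, 5 were higher in replicates 4 to 6 (13.2%, beside 10.4% of all) and 10 lower (26.3%, beside 31.8% of all). The members' shares were near those of the array.

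The members with the largest differences between the replicates came from several roles. *Ift80*, a peripheral IFT-B subunit, had a mean of 1.78 ± 0.09 (SD, n = 6) in replicates 1 to 3 and 1.45 ± 0.09 in replicates 4 to 6, a difference of -0.33 ± 0.06 (SE; limma, adjusted p = 0.000928). It ran from 1.65 to 1.90 in the former and from 1.33 to 1.58 in the latter, with no overlap. *Bbs10* fell from -1.49 ± 0.11 to -1.79 ± 0.06 (SD, n = 6; limma, adjusted p = 0.00161), and *Tmem67*, a transmembrane protein of the transition zone also known as meckelin, was lower by a log2 difference of -0.29 (adjusted p = 0.00211). *Ift27*, the small GTPase of IFT-B that helps the BBSome to leave the cilium, rose by 0.33 ± 0.09 (SE; limma, adjusted p = 0.0136), with its highest value, 0.83, in ΔJ replicate 5. The *Tctn1* probe set 10533444 was lower by a log2 difference of -0.35 ± 0.10 (SE; limma, adjusted p = 0.0149) while the probe set 10533446 of the same gene differed by 0.07, so that the 2 probe sets of *Tctn1* disagreed.

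Between the replicates 6 members did not overlap, namely *Ift80*, *Ift140*, *Bbs9*, *Bbs10*, *Kif17* and *Tmem67* (15.8%, beside 23.3% of all probe sets). The split of the calls depended on the scaling of the arrays, whose 75th percentiles lay from 8.38 to 8.42 in replicates 1 to 3 and from 8.53 to 8.56 in replicates 4 to 6. The 15 calls were 5 higher and 10 lower after the 75th percentile shift, so that 33.3% were higher, beside 24.7% of the calls over all probe sets. The 16 calls on unshifted values were 14 higher and 2 lower (87.5% higher, beside 59.2%), where 41.2% of all probe sets were called. The 11 after subtraction of the array median were 8 higher and 3 lower (72.7% higher, beside 44.7%), where 39.2% of all probe sets were called. The 15 after quantile normalisation were 5 higher and 10 lower (33.3% higher, beside 44.3%), where 35.3% of all probe sets were called. The median over all probe sets moved from -0.10 after the 75th percentile shift to 0.05 on unshifted values. The members' median lay above that of all probe sets by 0.0522 under both, which a shift of whole arrays cannot change, and below it after quantile normalisation, with a difference of -0.0264. Called in the same direction under all 4 scalings were 7 members (18.4%, beside 22.9% of all probe sets), of which *Ift27*, *Ift52*, *Ift140*, *Kif17* and *Tctn2* were higher and *Ift80* and *Bbs10* lower in replicates 4 to 6.

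**Figure D4:**
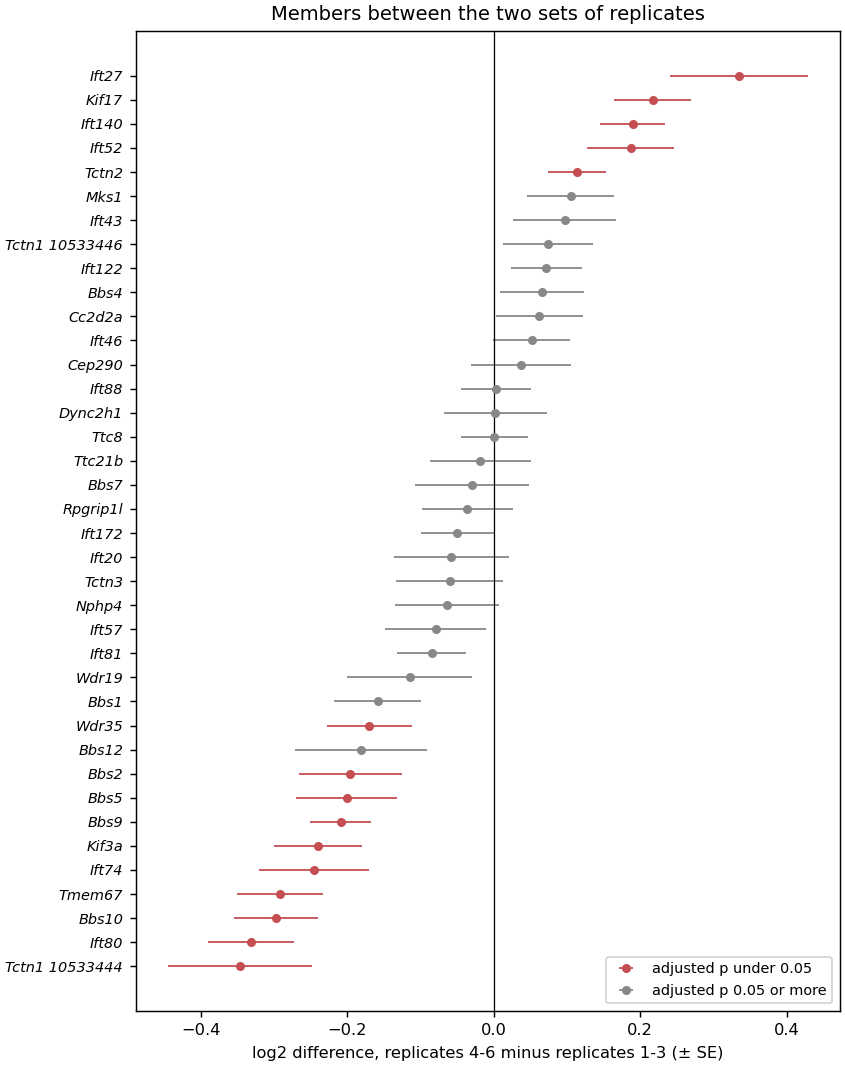
Log2 difference of each member between replicates 4 to 6 and replicates 1 to 3, with genotype in the fit (x axis; points, with standard errors as bars; 6 mice per set), ordered by size. Red marks the 15 members with an adjusted p under 0.05, of which 5 lie above and 10 below 0 after the 75th percentile shift.

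Within replicates 1 to 3, the 3 ΔJ mice lay wholly above the 3 wild-type mice for *Ift57* and *Tmem67* and wholly below them for no member, 2 of 38 (5.26%) beside 8.32% of all probe sets in either direction. Within replicates 4 to 6 they lay wholly above for *Ift74*, *Ift81* and *Bbs7* and wholly below for no member, 3 of 38 (7.89%) beside 14.3% of all probe sets in either direction. *Ift57* was higher in ΔJ mice by 0.09 in replicates 1 to 3 and by 0.23 in replicates 4 to 6, and *Ift20* differed by -0.09 and -0.19. *Ift74* differed by 0.04 and 0.30, and *Bbs7* by -0.08 and 0.28. *Bbs7* had the smallest p of the members for that contrast between the sets (interaction term, limma, adjusted p = 0.909). It was the only 1 of 38 members with an unadjusted p under 0.05 for that term, beside 3.83% of all probe sets, and for the interaction of sex with genotype the count was 0, beside 3.40%. Of the members 22 had the same sign of difference in both sets. With the replicate set as a covariate, *Ift57* (adjusted p = 0.617) and *Ift74* (adjusted p = 0.618) came under an unadjusted p of 0.05, 2 of 38 beside 8.04% of all probe sets, and 0 members were called, beside 0.200%. With the replicate number as a block, *Ift57* alone came under an unadjusted p of 0.05, 1 of 38 beside 7.90%, and 0 members were called, beside 0.143%.

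The spread between mice of 1 genotype was small for most members. After the means of each genotype in each set of replicates were removed, residual SDs ran from 0.0382 (*Tctn2*) to 0.180 (*Tctn1*, probe set 10533444), with a median of 0.101. Over the mice of both genotypes, with no means removed, the SD was larger in replicates 4 to 6 than in 1 to 3 for 30 of 38 members. That SD holds genotype differences too, and the share over all probe sets is not given here. ΔJ replicates 5 and 6 held 24.9% and 23.0% of the members' squared deviation, and the next mouse, wild-type replicate 2, held 9.31%. ΔJ replicate 5 was the lowest ΔJ mouse for 14 members and the highest for 8, and ΔJ replicate 6 was the lowest for 9 and the highest for 9. Such counts were not particular to these mice. Among the wild-type mice, replicate 3 was the highest for 16 members, and replicates 6 and 2 were the lowest for 13 and 11.

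The members varied together only in part. Over the 12 arrays, after removal of those means, the median Pearson correlation of the 703 member pairs was 0.115, from -0.898 to 0.955. It was 0.263 for the 130 pairs within a role and 0.0647 for the 573 pairs across roles. The points share arrays and scaling, and genes are not independent replicates, so that these values are given as a description. Without ΔJ replicates 4 to 6, a setting chosen after seeing the data, the medians over 9 arrays were 0.274 within and 0.193 across roles.

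The closest pair was *Ift57* with *Ttc21b* at 0.955, and 0.863 without ΔJ replicates 4 to 6. *Ift27* with *Ift43* followed at 0.945 (0.775), *Ift80* with *Bbs9* at 0.924 (0.919) and *Wdr35* with *Bbs9* at 0.909 (0.895). The most opposed pair was *Ift20* with *Ttc21b* at -0.898 (-0.759). *Bbs2* and the *Tctn1* probe set 10533444 correlated at 0.906 with all mice and at 0.0126 without ΔJ replicates 4 to 6, so that this pair rested on those mice. *Wdr35* (0.913), *Bbs9* (0.875) and *Ift80* (0.809) had the highest correlations with the mean of the other members, and *Bbs12* the lowest, at -0.521.

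Set against marker lists in the same way, the members' median correlation was 0.296 with the mean of the mature OSN markers, 0.319 with the immature OSN markers, 0.282 with the basal and progenitor markers and -0.0954 with the motile ciliated cell markers. The median over all single-gene probe sets was 0.00835 for the mature OSN, -0.0232 for the immature OSN, -0.0495 for the basal and progenitor and -0.0401 for the motile ciliated cell markers. Of 38 members, 23 correlated above 0 with the mature OSN list and 15 with the motile ciliated cell list. ΔJ replicate 5 had the lowest mean of all 12 mice for the mature OSN (1.88) and the immature OSN markers (1.33). The correlations with the lists are given over all 12 arrays only, so the part of that mouse in them is not shown. The median with the companion ciliary genes was 0.0697, below the 0.120 over all single-gene probe sets. With the sustentacular markers it was 0.0278 and with the immune and blood markers -0.143, where all single-gene probe sets had -0.0681 and 0.0253. Among 21751 probe sets of other single genes, those whose profile was most like the mean of the members were *Nufip2* (0.967), *Scn2a* (0.959), *Pcdhb21* (0.947), *Dennd5b* (0.946), *Olfr616* (0.944), *Slc5a5* (0.944), *Tead1* (0.939), *Pcdh20* (0.931), *Cand1* (0.929) and *Rtl6* (0.927), over 12 arrays. These are the highest values of that search over few arrays, so that their height is in part built in. The members' mean itself deviated only from -0.0456 (wild-type replicate 2) to 0.0450 (wild-type replicate 3).

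**Figure D5:**
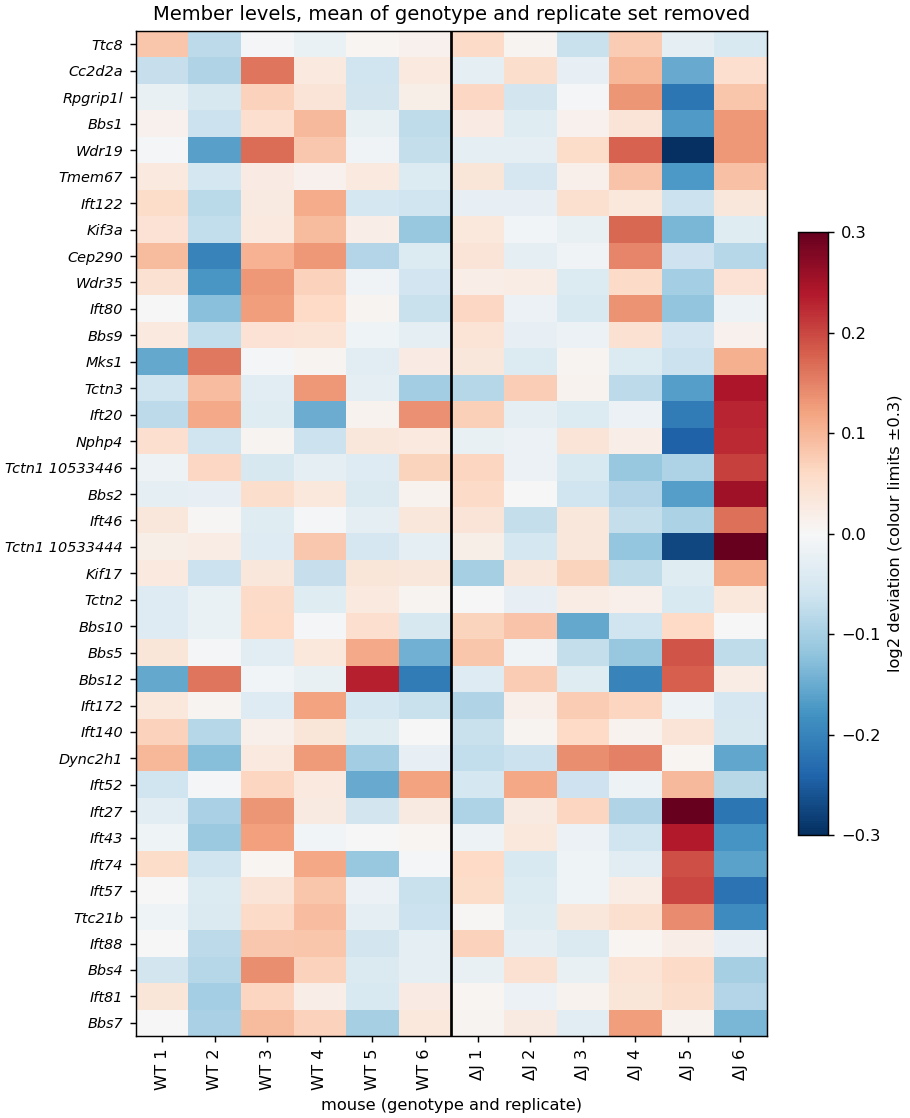
Deviation of each member (rows, ordered by similarity) in each mouse (columns; WT, wild-type) from the mean of its genotype and set of replicates, on a colour scale in log2 units limited to ±0.3. The strongest colours stand in ΔJ replicates 5 and 6, mostly of opposite sign, and hold 24.9% and 23.0% of the squared deviation. Deviations within a genotype and set of replicates cancel out, so that opposite signs are in part built in.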

How the data were processed

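The values deposited by the authors are log2 signals, with 35556 probe sets on each of 12 arrays. Affymetrix Expression Console is named in the submitters' processing notes, and neither its version nor how it corrected background and summarized probes is given in the sources used here. Per the methods of the paper, the arrays were then shifted by the 75th percentile and tested by genotype with a moderated test, and the same shift was applied here to the deposited values. The number of arrays limits the precision. No pair of arrays held identical values.

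Gene names came from GEO's platform annotation, in which 21789 probe sets had a single gene symbol, 1621 several and 12146 none. The fits were made in R 4.3.3 with lmFit and eBayes of limma 3.58.1, by genotype alone in the main comparison, and Benjamini-Hochberg adjustment ran over all probe sets. A member was called at an adjusted p under 0.05. Sex and the set of replicates (1 to 3 or 4 to 6) were each tested with genotype in the fit, and their interactions with genotype in further fits. The script was tested on simulated data. There the genotype test, at an adjusted p under 0.05, called 20% of probe sets changed by 1.3-fold. It called 64% of those changed by 1.5-fold and 90% of those changed by 2-fold, so that small changes were often missed. Correlations between probe sets used values from which the mean of each genotype in each set of replicates had been removed.

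The members and lists were chosen with earlier results of these data known. Values are given by mouse for *Ift88*, *Ift140*, *Bbs4*, *Ttc8*, *Kif17*, *Dync2h1* and *Cep290* and the 5 members with the smallest p for genotype. Also named are members with an unadjusted p under 0.05 in the tests of genotype or sex, the 5 with the largest difference between sets of replicates, those with the largest and smallest residual SD, the 10 most alike genes, the first 3 genes of each list and the 3 companion genes lowest in p. The remaining members are given by their difference. The names of members that are called, do not overlap or are most correlated were added after the values were seen.

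Same-numbered ΔJ and wild-type arrays deviated together from the means of their genotype. The correlations over all probe sets were 0.365, 0.294, 0.419, 0.441, 0.185 and 0.385 for replicates 1 to 6. Only genotype means were removed there, so the difference between the sets of replicates stayed in these values. Arrays of the same set can correlate for that reason whatever their number, so these values cannot show that same-numbered mice are pairs. The numbers were nevertheless taken as pairs in a fit that blocks on them. The alternatives were unshifted values, subtraction of the array median, quantile normalization, a filter on low values, the block, the set of replicates or sex as a covariate, P30 mice only, limma's array weights and leaving out each mouse.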

Additional observations from a re-analysis of the deposited data

Results flagged for a closer look

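In 5 of 76 groups of 6 mice (6.58%) 1 mouse lay far from the others by Dixon's criterion, which chance meets in about 1 of 20 groups. For *Ift81*, ΔJ replicate 6 was lowest at 0.76, with the next mouse at 0.87. For *Ift43*, ΔJ replicate 5 was highest at 1.65, with the next at 1.35. For *Wdr19*, ΔJ replicate 5 was lowest at 0.95, with the next at 1.37. For *Rpgrip1l*, ΔJ replicate 5 was lowest at 0.15, with the next at 0.38. For *Cep290*, ΔJ replicate 4 was highest at 0.10, with the next at -0.05. The 5 values came from ΔJ mice of replicates 4 to 6, and 3 of them from ΔJ replicate 5.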

How the results depend on the processing

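The count of members called for genotype was 0 under all 21 alternatives, with a lowest adjusted p of 0.433, and that for sex was 0 wherever it was run. With the replicate number as a block, 0 members were called (limma, lowest adjusted p 0.618), and their median difference stayed at 0.03. In that fit 1 member, *Ift57*, had an unadjusted p under 0.05, and the block changed no call. The median difference of the members was 0.0719 after subtraction of the array median, which raises the median of all probe sets from -0.03 to 0.01, was -0.00221 in P30 mice only, where its sign turned, and ran from 0.000565 to 0.0395 with each mouse left out. The count between the sets of replicates ran from 10 to 14 with each mouse left out, and was lowest without ΔJ replicate 1. The filter on low values kept 36 of 38 members and left out *Bbs10* and *Bbs12*, with wild-type means of -1.62 and -2.25. Of 859 values of single members and companion genes, 789 kept their direction, 70 changed sign and 0 were called; the 21 members that changed sign differed by at most 0.08 between the genotypes. With unshifted values the difference was 0.0101 for *Ift80* and 0.00973 for *Ift122*. After subtraction of the array median it was 0.0399 for *Ift80*, 0.0395 for *Ift122*, 0.0273 for *Wdr35*, 0.00941 for *Bbs10*, 0.0165 for *Tctn2*, 0.0243 for *Mks1*, 0.00197 for *Nphp4* and 0.00801 for *Rpgrip1l*. With quantile normalization it was -0.0103 for *Bbs9* and 0.00300 for *Bbs10*. With sex as a covariate it was 0.00110 for *Ift122* and -0.00611 for *Bbs9*. In P30 mice only it was -0.0350 for *Bbs9*, -0.0113 for *Kif3a*, 0.00427 for *Tctn2* and -0.00586 for *Tmem67*. With array weights it was -0.144 for *Ift27*, -0.0418 for *Ift52*, 0.167 for *Ift80*, -0.0170 for *Ift43*, -0.00938 for *Ift140*, 0.0262 for *Wdr19*, 0.0808 for *Wdr35*, 0.0462 for *Bbs1*, 0.0379 for *Bbs2*, -0.00170 for *Bbs4*, 0.0904 for *Bbs10*, 0.144 for *Tctn1* (probe set 10533444), 0.00882 for *Nphp4* and 0.00169 for *Rpgrip1l*. With each mouse left out in turn, the difference ran from -0.0772 to 0.00470 for *Bbs1*, from -0.0800 to 0.0171 for *Bbs10*, from -0.0266 to 0.0382 for *Bbs9*, from -0.00285 to 0.0699 for *Cep290*, from -0.0287 to 0.0295 for *Ift122*, from -0.0651 to 0.112 for *Ift27*, from -0.0210 to 0.0628 for *Ift43*, from -0.000390 to 0.0803 for *Ift52*, from -0.0488 to 0.0558 for *Ift80*, from -0.0552 to 0.00876 for *Mks1*, from -0.0720 to 0.0213 for *Nphp4*, from -0.0544 to 0.0155 for *Rpgrip1l*, from -0.106 to 0.0483 for *Tctn1* (probe set 10533444), from -0.0175 to 0.0998 for *Tmem67*, from -0.0822 to 0.0191 for *Wdr19* and from -0.0418 to 0.0267 for *Wdr35*. The cause of these sign changes was not tested. The signal over background was not analysed here.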
